A study of Sus scrofa with 2 samples.

Results

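The genes described here are ITGAM, ITGAL and ITGB2, which encode chains of the leukocyte integrins, and BANK1, CD79A and JCHAIN, which are known from B cells and plasma cells. They were chosen by name from the feature lists of both libraries, and all 6 of the 6 were found among the 31908 genes listed. Skin of the back of male farm pigs was dissociated with enzymes, dead cells were removed by sorting, and 1 library of fresh, untreated cells and 1 library of cells frozen in 90% FBS + 10% DMSO and thawed were made with a droplet kit that reads the 3′ end of transcripts. Molecules were counted by a barcode of their own (UMI) rather than by reads, and a gene's level in a set of cells is its UMIs scaled to a fixed total of UMIs of those cells (CPM). With 1 library per condition there is no spread between samples, no test was run, and all intervals are 95% intervals that cover counting error only. Beside a count of 0 the limit given is what 3 counts would be, and it limits cells with a UMI, not cells that express the gene. Neither the labels nor the methods state that 1 animal gave both libraries, and the protocol text attached to both samples describes freezing, although the title and treatment labels mark 1 of them as fresh and untreated.

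Integrins are adhesion receptors made of an alpha and a beta chain. ITGB2 is CD18, the beta chain that pairs with ITGAM (CD11b) to form Mac-1, the complement receptor of myeloid cells, and with ITGAL (CD11a) to form LFA-1, which binds ICAM proteins and is carried by lymphocytes and many other leukocytes. CD79A is the signalling chain of the B cell antigen receptor, BANK1 is a scaffold protein that joins that receptor to its kinases, and JCHAIN links immunoglobulin monomers into the polymers that plasma cells secrete. B cells are usually recognised by MS4A1 (CD20) and CD79B beside CD79A, and plasma cells by MZB1 and TNFRSF17 beside JCHAIN.

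On the Sscrofa11.1 genome, in the RefSeq annotation, all 6 genes lie on the minus strand. ITGAM (chromosome 3, 17216719 to 17272134, 29 to 31 exons) and ITGAL (chromosome 3, 17817785 to 17858057, 30 or 31 exons) are on the same chromosome. ITGB2 is on chromosome 13 (207514281 to 207544108, 16 exons), BANK1 on chromosome 8 (118814352 to 119114973, 18 exons), CD79A on chromosome 6 (49996116 to 49999294, 5 exons) and JCHAIN on chromosome 8 (67439405 to 67448628, 4 exons). A lncRNA overlaps ITGAM and a pseudogene overlaps ITGB2, each on the opposite strand. On the same strand, ARHGEF1 lies 674 and RPS19 3904 bases from CD79A, and a lncRNA lies 415 bases from ITGAL. The sequence in front of each integrin gene is shown because the chains that pair as proteins can be compared there. Each line holds the 250 bases before the gene start, read 5′ to 3′ on the strand of the gene. Capitals mark matches on either strand to GAGGAA, a form of the binding site of the myeloid factor PU.1, and to TGTGGT, the core of the RUNX site. TTCCTC and ACCACA are their reverse complements, and other forms of either site were not marked.
ITGAM, chr3:17272135-17272384: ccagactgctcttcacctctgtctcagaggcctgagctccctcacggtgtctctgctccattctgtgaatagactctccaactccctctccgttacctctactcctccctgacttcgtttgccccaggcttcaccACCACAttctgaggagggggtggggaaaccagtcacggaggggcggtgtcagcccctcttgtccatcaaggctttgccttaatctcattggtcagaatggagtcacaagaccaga
ITGAL, chr3:17858058-17858307: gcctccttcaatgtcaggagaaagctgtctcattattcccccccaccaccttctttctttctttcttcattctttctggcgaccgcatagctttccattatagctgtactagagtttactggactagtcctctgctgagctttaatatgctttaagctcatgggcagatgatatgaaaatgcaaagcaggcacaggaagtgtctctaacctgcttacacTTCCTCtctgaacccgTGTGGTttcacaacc
ITGB2, chr13:207544109-207544358: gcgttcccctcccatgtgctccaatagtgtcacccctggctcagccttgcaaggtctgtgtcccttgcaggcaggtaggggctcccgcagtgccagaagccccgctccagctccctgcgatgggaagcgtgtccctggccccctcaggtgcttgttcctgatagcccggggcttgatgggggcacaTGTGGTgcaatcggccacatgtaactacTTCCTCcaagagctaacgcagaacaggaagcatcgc

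ITGAL and ITGB2 each held 1 match to GAGGAA and 1 to TGTGGT. In ITGAL the GAGGAA match began 31 and the TGTGGT match 15 bases before the start, and in ITGB2 they began 36 and 64 bases before it. ITGAM held TGTGGT at 115 bases and no GAGGAA, CD79A held GAGGAA at 197 and TGTGGT at 224 bases, and BANK1 and JCHAIN held neither. Neither the octamer ATTTGCAT nor the palindromic EBF1 motif was found before any of the 6 genes. Over 19525 promoters of the same length, 4288 (22%) held GAGGAA, 2724 (14%) TGTGGT, 1.24% the octamer and 0.942% the EBF1 motif. The matches are short and common and describe letters only.

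After the filter stated in the methods, which allows at most 4500 genes, 30000 UMIs and 10% mitochondrial UMIs, 2775 of 4379 fresh and 4223 of 4860 cryopreserved barcodes were kept, with a median of 11017 and 7945 UMIs per cell, and the libraries shared 5 barcode sequences among kept cells. The 6 genes were left out of the features used to integrate and cluster the cells, so that the 24 clusters do not rest on them. Clusters were named from marker lists and are called "-like" for that reason. Of the cells, 474 fresh (17.1%) and 795 cryopreserved (18.8%) fell into 7 leukocyte clusters, and 5729 cells into the others. Cluster 7 (139 fresh and 231 cryopreserved cells) was CD163/CD209 myeloid-like, and cluster 11 (107 and 184) was Langerhans or other dendritic-like. Clusters 15 (72 and 143), 16 (65 and 98) and the dividing cluster 23 (8 and 13) were T or NK-like, cluster 16 being led by GNLY, and cluster 17 (68 and 82) was mast-like. Cluster 20 (15 and 44) raised 8 of 10 markers of the CD163/CD209 myeloid list but held 1 UMI of CD209 in all, and is called here the TBXAS1/ARG1 myeloid cluster after the genes that lead it by fold, TBXAS1 being found in 58 and ARG1 in 14 of its 59 cells. No cluster met the rule for a B or plasma cell name.

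ITGB2, the shared beta chain, was the member most sharply confined to leukocyte clusters. It had 575 UMIs in 247 fresh cells and 922 UMIs in 402 cryopreserved cells, and 97.7% of its UMIs lay in leukocyte clusters. In those clusters its level was 125 CPM in the fresh and 156 CPM in the cryopreserved library, against 0.647 and 0.550 CPM in the remaining cells. On log2(CPM + 1) values the difference was 6.49. By this comparison 12.4% of the 11692 genes with at least 200 UMIs were at least 2-fold higher in leukocyte clusters and 25.9% at least 2-fold lower. Among the 6 genes, 5 were at least 2-fold higher and 0 were 2-fold lower. ITGB2 was seen in 48.7% of leukocyte-cluster cells and in 0.431% of fibroblast-like cells (median depth 10946.5 UMIs per cell), which should lack it.

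The level of ITGB2 differed between leukocyte lineages. It was highest in the TBXAS1/ARG1 myeloid cluster 20, with 312 CPM in the fresh and 404 CPM in the cryopreserved library. It followed in the CD163/CD209 myeloid-like cluster 7 with 173 and 204 CPM and in the mast-like cluster 17 with 159 and 203 CPM, and over both libraries the intervals of these neighbours overlapped (176 to 207 and 147 to 222 CPM). The dendritic-like cluster 11 had 116 CPM in each library. Of the T or NK-like clusters, cluster 16 had 60.5 and 120 CPM, cluster 15 had 33.8 and 45.7 CPM, and cluster 23 had 26.2 and 39.2 CPM. The intervals of clusters 11 and 16 overlapped (105 to 128 and 74 to 114 CPM), as did those of clusters 15 and 23. Outside the leukocyte clusters the endothelial-like cluster 3 was highest, at 6.75 CPM from 19 UMIs in 15 of 471 cells.

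ITGAM was highest in the myeloid and dendritic-like clusters, and 169 of its 987 UMIs lay outside the leukocyte clusters. It had 443 UMIs in 191 fresh cells and 544 UMIs in 278 cryopreserved cells. In cluster 20 it stood at 221 CPM (fresh) and 165 CPM (cryopreserved), and in cluster 7 at 134 and 141 CPM, with intervals over both libraries that overlapped (147 to 223 and 126 to 151 CPM). The dendritic-like cluster 11 was lower than both, at 80.6 and 58.4 CPM. Cluster 16 had 17.9 and 29.5 CPM, and clusters 15, 17 and 23 held 6, 4 and 3 UMIs in all. ITGAM was found in 52.7% of the cells of cluster 7 and 71.2% of those of cluster 20, against 1.94% of fibroblast-like cells. In the fibroblast-like cells the level was 3.17 CPM (fresh) and 3.16 CPM (cryopreserved).

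ITGAL showed the opposite order between cluster 7 and the T or NK-like clusters. It had 170 UMIs in 107 fresh cells and 196 UMIs in 132 cryopreserved cells. In cluster 16 it stood at 117 CPM (fresh) and 104 CPM (cryopreserved), in cluster 15 at 49.7 and 45.7 CPM, and in cluster 23 at 43.7 and 23.5 CPM. The intervals of clusters 15 and 23 overlapped. In the dendritic-like cluster 11 it stood at 6.15 and 5.21 CPM, in the mast-like cluster at 3.89 and 7.38 CPM, and in cluster 7 at 2.97 and 4.23 CPM. It was seen in 1.19% of fibroblast-like cells, 2.97% of cluster 7 and 40.5% of cluster 16. The exception among myeloid cells was cluster 20, with the highest level of all, 273 CPM in the fresh and 179 CPM in the cryopreserved library, although it held 59 of the 6998 cells. Without the top 6% of Scrublet scores, a score of likeness to simulated doublets, its levels were 108 CPM (11 UMIs) and 202 CPM (59 UMIs), so that in the fresh library it was then no longer above the 117 CPM of cluster 16 with all cells.

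Cluster 7 was compared with the sum of the 3 T or NK-like clusters, on log2(CPM + 1) values of both libraries. ITGAM was 138 CPM in cluster 7 and 13.2 CPM in T or NK-like cells (log2 difference 3.29). ITGAL was 3.71 and 70.7 CPM (-3.93), ITGB2 191 and 60.3 CPM (1.65), and BANK1 107 and 2.48 CPM (4.95). JCHAIN was 11.4 and 4.13 CPM (1.28) and CD79A 31.8 and 47.9 CPM (-0.58). Of all genes tested, 17.6% were at least 2-fold higher and 20.9% at least 2-fold lower in cluster 7, and of the 6 genes 4 (ITGAM, ITGB2, BANK1 and JCHAIN) and 1 (ITGAL). The beta chain was counted on both sides, while the alpha chains divided.

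**Figure D1:**
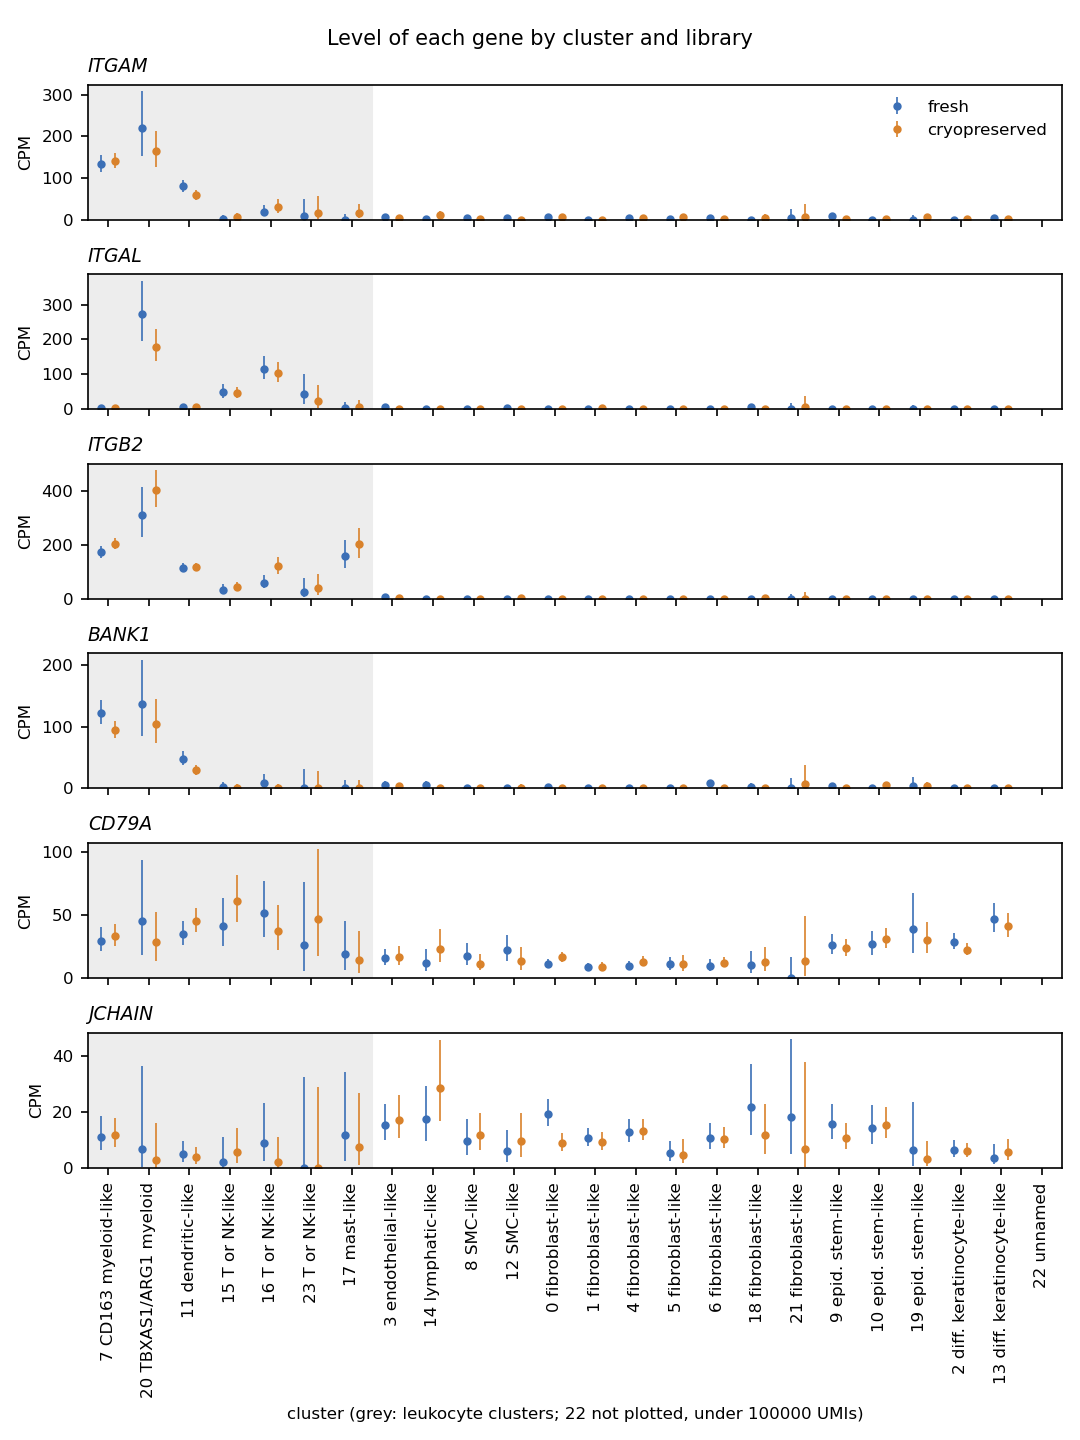
Level (CPM, linear axis from 0) of each gene in 23 of the 24 clusters, with fresh in blue and cryopreserved in orange; bars are exact 95% Poisson intervals, the grey band marks the 7 leukocyte clusters, and cluster 22 is not drawn because it holds too few UMIs. The 3 integrin chains rise in clusters of the grey band, and BANK1 rises there in clusters 7, 20 and 11 only. Apart from cluster 20, ITGAM is highest in clusters 7 and 11 and ITGAL in clusters 16 and 15. Cluster 16 also holds some ITGAM. CD79A and JCHAIN are spread over leukocyte and other clusters.

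The alpha chains were then followed in single cells. In cluster 7, ITGAM alone was found in 184 of 370 cells, ITGAL alone in 0 (which allows a share of up to 0.811% with a UMI), both in 11 and neither in 175. In cluster 11, 114 of 291 cells held ITGAM alone, 11 held ITGAL alone and 9 held both. The T or NK-like clusters were the mirror image. In cluster 15, 48 of 215 cells held ITGAL alone, 4 ITGAM alone and 2 both, and in cluster 16, 59 of 163 cells held ITGAL alone, 2 ITGAM alone and 7 both. Of the UMIs of both alpha chains, ITGAM made up 97.4% in cluster 7, 92.4% in cluster 11, 18% in cluster 16 and 9.38% in cluster 15, a share that compares clusters and says nothing of the amount of 1 chain against the other.

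Cluster 20 held both alpha chains in the same cells. Both were found in 7 of 15 fresh cells (46.7%, exact interval 21.3 to 73.4%) and in 21 of 44 cryopreserved cells (47.7%, 32.5 to 63.3%). Over both libraries 28 of 59 cells held both, 14 ITGAM alone, 8 ITGAL alone and 9 neither, and 24 of the 28 also held ITGB2. The next highest share of cells with both was 4.29% in cluster 16, and outside the leukocyte clusters 4 of 5729 cells held both. Scrublet put 13 of the 59 in the top 6% of their library. Without them both chains were found in 3 of 8 fresh and 17 of 38 cryopreserved cells, 43.5% in all. The cells with both chains had a median of 8050 UMIs, those with ITGAM alone 9544.5, those with ITGAL alone 6854.5 and those with neither 5590. Thinning each cell to 1000 UMIs left ITGAM in 18.6% and ITGAL in 27.1% of the cells of cluster 20.

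Cluster 20 was also higher for both chains than the sum of the other leukocyte clusters, which takes in the T or NK-like and mast-like cells. Cluster 7 alone was nearer to cluster 20 than that sum was for ITGAM (138 CPM), BANK1 (107 CPM) and ITGB2 (191 CPM). For ITGAL, cluster 7 was further below cluster 20 than the sum was (3.71 CPM). On log2(CPM + 1) values of both libraries, ITGAM stood at 182 against 74.6 CPM (log2 difference 1.28), ITGAL at 208 against 21.2 CPM (3.24), ITGB2 at 376 against 131 CPM (1.52) and BANK1 at 115 against 50.04 CPM (1.18). CD79A (33.7 against 38.2 CPM) and JCHAIN (3.96 against 6.88 CPM) stayed within 2-fold. Of all genes tested, 11.8% were at least 2-fold higher and 21.1% at least 2-fold lower in cluster 20, and of the 6 genes 4 and 0.

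Genes of other lineages were read in the 59 cells, and those in this paragraph were chosen after their values were seen. CD3D and CD3E of the T cell receptor complex and the T cell kinase LCK had 0 UMIs, and 0 of 59 cells allows a share with a UMI of up to 5.08%. CD3G had 0 UMIs in all 6998 cells and says nothing here. CD2 had 2 UMIs and CD247 had 3, and of the NK genes GNLY and KLRK1 had 0 while NKG7 had 43 UMIs in 22 cells. CSF1R, the receptor that sustains macrophages, was found in 56 cells, CD300C in 54 and TBXAS1, the thromboxane synthase, in 58. KIT, the receptor that marks mast cells, was found in 41 cells with 205 UMIs and MS4A2 in 10 cells with 17, while HDC, GATA2, HPGDS and FCER1A of the mast list had 0. Of the dendritic list, BCL2A1 was found in 56 cells and CCR7 in 16 cells with 74 UMIs, while CD207 and FLT3 had 0. Of the granulocyte or monocyte list, CSF3R was found in 11 cells and S100A12 in 8. FERMT3 (kindlin-3), which activates leukocyte integrins, was found in 53 cells. The 28 cells with both alpha chains and the other 31 cells of the cluster differed in VCAN (5 and 284 UMIs) and CD14 (18 and 57 UMIs). ARG1 had 20 UMIs in 1 of the 28 cells and 300 in 13 of the 31. Higher in the 28 cells were KIT (142 UMIs in 24 cells and 63 in 17) and MARCO (74 UMIs in 11 cells and 30 in 5). C1QA had more UMIs there (236 and 122) but was found in similar numbers of cells (10 and 9). These UMIs are sums and were not scaled to the total UMIs of each set. The 2 sets of cells were near each other in CSF1R (165 and 188 UMIs) and TBXAS1 (364 and 302 UMIs). CD300C was found in 27 of the 28 and in 27 of the 31, so that it did not set the cells with both chains apart within cluster 20. Cells with both chains in other clusters were not read here.

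**Figure D2:**
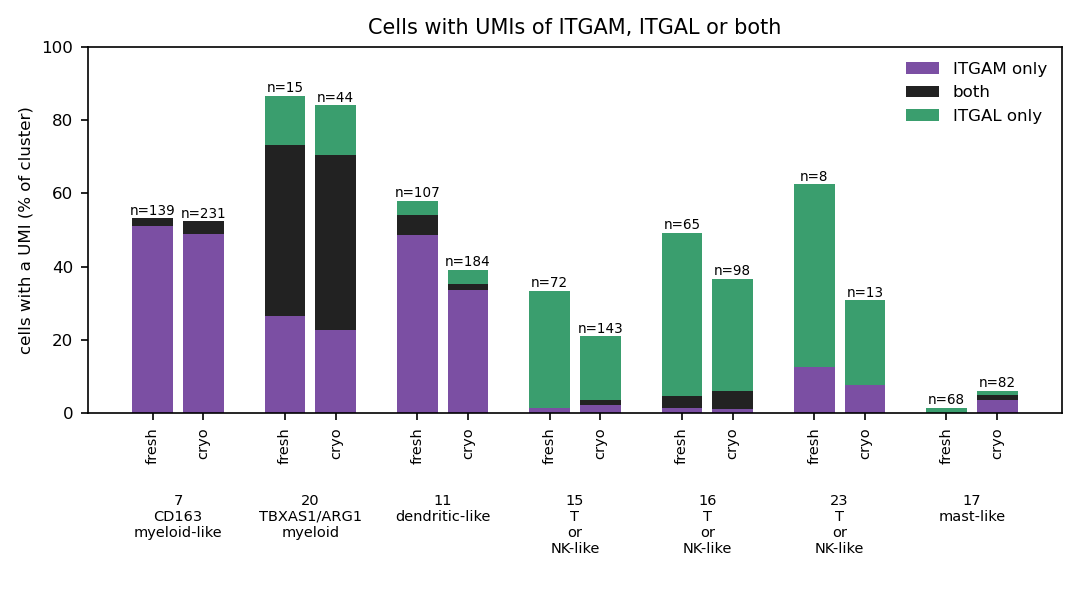
Share of the cells of each leukocyte cluster (percent, fresh and cryopreserved bars side by side, n cells above each bar) in which UMIs of ITGAM only (purple), both alpha chains (black) or ITGAL only (green) were found. Cells with neither chain are not drawn. The drawn bars are mostly purple in clusters 7 and 11 and mostly green in clusters 15, 16 and 23. Only cluster 20 is black in 46.7% (fresh) and 47.7% (cryopreserved) of its cells.

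ITGB2 was detected more often where an alpha chain was detected. Over all cells, 286 of the 469 cells with ITGAM (61.0%, exact interval 56.4 to 65.4%) and 105 of the 239 cells with ITGAL (43.9%, 37.5 to 50.5%) also held ITGB2. Among the cells without ITGAM 5.56% held ITGB2, and among those without ITGAL 8.05%. These shares set leukocytes against all other cells as well. In the leukocyte clusters together ITGB2 was found in 74.5% of cells with ITGAM and 37.6% of cells without it. For ITGAL the shares there were near each other, 52.3% with it and 48.0% without. Within cluster 7, ITGB2 was found in 75.4% of cells with ITGAM and 45.7% of cells without it, but the cells with both had a median of 12301 UMIs and those with ITGAM and no ITGB2 6073. Within cluster 11 the shares were 69.9% and 59.5%, and within cluster 20 they were 90.5% and 88.2%. In cluster 16, 9 of 9 cells with ITGAM and 34 of 154 without it held ITGB2, and in cluster 15, 1 of 6 and 43 of 209. For ITGAL the shares with and without it were 45.5% and 13.4% in cluster 16. They were 15 of 50 and 29 of 165 cells in cluster 15, 13 of 20 and 173 of 271 in cluster 11, and 31 of 36 and 22 of 23 in cluster 20. In the remaining cells, 2 of 88 cells with ITGAM held ITGB2.

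T or NK-like cluster 16 was not uniform. At a resolution of 1.2, chosen as a breakdown after seeing the data, it split into subcluster 23 (91 cells, 1703 GNLY UMIs in 19 of them) and subcluster 24 (72 cells, 0 GNLY UMIs). These numbers name subclusters, not the clusters above. Both held CD3E, at 631 and 849 CPM, and KLRK1 had 309 UMIs in the former and 0 in the latter. ITGAL was alike in both, with 57 UMIs (103 CPM, interval 77.8 to 133) and 48 UMIs (120 CPM, 88.7 to 159). ITGB2 had 85 UMIs in 40 cells of subcluster 23 (113 CPM fresh, 182 CPM cryopreserved) and 3 UMIs in 3 cells of the other (4.63 and 10.9 CPM). All 23 ITGAM UMIs of cluster 16, in 9 cells, lay in subcluster 23 (41.5 CPM, interval 26.3 to 62.2). In subcluster 24 ITGAL was counted in 28 cells and its beta chain in 3, with the same order in both libraries. Median depth was 5641 and 4755 UMIs per cell.

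BANK1, although known from B cells, followed the myeloid clusters. It had 328 UMIs in 155 fresh cells and 310 UMIs in 193 cryopreserved cells, and 85.4% of its UMIs lay in leukocyte clusters. Its level was 137 CPM (fresh) and 105 CPM (cryopreserved) in cluster 20, 123 and 94.7 CPM in cluster 7, and 48.6 and 29.7 CPM in the dendritic-like cluster 11. Clusters 20 and 7 overlapped in their intervals (87.2 to 148 and 95.6 to 118 CPM), and cluster 11 (32.2 to 45.4 CPM) was below both. In the T or NK-like clusters together it had 6 UMIs in 399 cells, and in mast-like cells 0 UMIs in 150 cells, which allows up to 5.68 CPM. BANK1 was found in 48.6% of cluster 7 and in 1.15% of fibroblast-like cells.

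Cells with BANK1 were mostly cells with integrin chains. Of 348 cells with BANK1, 164 held ITGAM (47.1%, exact interval 41.8 to 52.5%) and 199 held ITGB2 (57.2%), against 4.59% and 6.77% of the cells without BANK1. CD79A was found in 80 of them and in 16.2% of the cells without BANK1, and JCHAIN in 8.33% and 7.74%. Within cluster 7, ITGAM was found in 57.2% of the cells with BANK1 and 48.4% of those without. There the cells with both had a median of 12407 UMIs and those with BANK1 and no ITGAM 6611. The shares were 53.4% and 38.5% in cluster 11, and 70.8% and 71.4% in cluster 20.

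CD79A was spread over all cell classes. It had 625 UMIs in 492 fresh cells and 804 UMIs in 662 cryopreserved cells, the highest number of cells of the 6 genes. Of those cells, 77.6% and 82.6% held 1 UMI, and no cell held more than 5. Its level was 35.1 CPM (fresh) and 40.3 CPM (cryopreserved) in leukocyte clusters and 16.9 and 18.5 CPM in the remaining cells, a log2 difference of 1.06, so that 27.2% of its UMIs were in leukocyte clusters. The highest clusters over both libraries were the T or NK-like cluster 15 (53.1 CPM, interval 41.0 to 67.7) and cluster 16 (44.0 CPM, 31.7 to 59.5), the differentiated keratinocyte-like cluster 13 (43.8 CPM, 36.8 to 51.6) and the dendritic-like cluster 11 (40.6 CPM, 34.3 to 47.8), and these intervals overlapped. Fibroblast-like cells had 11.2 CPM, with CD79A in 333 of 2784 cells at a median depth of 10946.5 UMIs. Cells of cluster 15 had it in 52 of 215, at a median depth of 5151 UMIs. At an equal depth of 1000 UMIs per cell, drawn at random, it was found in 1.26% of the former and 3.72% of the latter.

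JCHAIN was the one gene lower in leukocytes than elsewhere, within 2-fold. It had 357 UMIs in 260 fresh cells and 349 UMIs in 284 cryopreserved cells, with at most 5 UMIs in a cell. Its level was 7.19 CPM (fresh) and 6.39 CPM (cryopreserved) in leukocyte clusters and 11.7 and 10.1 CPM in the remaining cells (log2 difference -0.61). The lymphatic-like cluster 14 was highest, with 17.3 and 28.4 CPM, followed by the fibroblast-like cluster 18 and the endothelial-like cluster 3 with 16.3 and 16 CPM over both libraries, and their intervals overlapped. Among leukocytes it was highest in cluster 7 (11.4 CPM) and near 4 CPM in clusters 11, 15 and 20. Plasma cells make JCHAIN in large amounts, but the count that 1 such cell would give here was not tested. No kept cell held more than 5 UMIs, and a fresh cell of cluster 11 with 5 is described below.

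No group of cells carried the B cell genes together. All 3 of BANK1, CD79A and JCHAIN were found in 9 of 6998 cells, 5 fresh and 4 cryopreserved, and 8 of the 9 lay in leukocyte clusters. The median depth of cells with 0, 1, 2 and 3 of these genes was 8062.5, 11611, 13593.5 and 13519 UMIs, so that detection rose with depth. Of the 9 cells, 1 held any of MS4A1, CD79B, POU2AF1, MZB1 and TNFRSF17, genes known from B or plasma cells, of which MZB1 is also known from plasmacytoid dendritic cells. That fresh cell of cluster 11 (11840 UMIs) held 9 UMIs of BANK1, 2 of CD79A, 5 of JCHAIN, 5 of POU2AF1 (a B cell coactivator), 7 of BLK, 1 of PAX5, 1 of MZB1 and 18 of CCR7, with 1 UMI of ITGB2 and 0 of ITGAM and ITGAL. It also held 3 UMIs of EBF1 and 1 each of TNFRSF13C and BLNK, and 0 of MS4A1, CD79B, CD22, FCRLA and SPIB. Of genes of other lineages, FLT3, CD207, C1QA and CD3E had 0 UMIs in it, while CD40 had 3, XBP1 3 and SLA-DRA 58. Its Scrublet score lay in the top 6% of the library. A second fresh cell of cluster 11 (20516 UMIs) held 1 UMI of MS4A1, 4 of MZB1, 6 of SPIB, 8 of IRF4 and 46 of FLT3, with 2 of CD79A and 0 of BANK1 and JCHAIN, and FLT3 is a dendritic cell gene. This second cell, and the genes of other lineages read in the first, were chosen after their values were seen. In all, 29 of 6998 cells held any of those 5 genes and 2 held 2 or more.

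Of the other B cell genes, 11 of the 13 reported on were found, VPREB3 and CR2 being not analysed here. Those with fewer than 50 UMIs are named here and below after their values were seen. MS4A1 had 1 UMI in fresh and 0 in cryopreserved cells, where 0 of 4223 cells allows a share with a UMI of up to 0.0710%. CD79B had 0 and 5 UMIs, POU2AF1 6 and 4, PAX5 16 and 22, and CD22 21 and 22, of which 17 lay in the mast-like cluster 17. Genes of the list with at least 200 UMIs were 4. Of them 3 were at least 2-fold higher in leukocyte clusters and 1, EBF1, lower, against 12.4% and 25.9% of all genes tested. BLK, a Src-family kinase known from B cells, stood at 1753 CPM in the T or NK-like cluster 15 and 1772 CPM in cluster 23, with 0 UMIs in cluster 20. FCRLA was found at 106 CPM in the dendritic-like cluster 11, with 377 of its 385 UMIs, and SPIB, a factor shared with dendritic cells, had 28 of 33 UMIs there. BLNK, an adaptor of the B cell receptor, was at 113 CPM in cluster 7 and 45.1 CPM in cluster 11. EBF1, a factor of early B cells that stromal cells also use, was at 768 CPM in the remaining cells and 22.7 CPM in leukocyte clusters.

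The plasma cell genes gave a similar picture, with 9 of 9 listed found and 5 with at least 200 UMIs. IRF4 was at least 2-fold higher in leukocyte clusters, with 274 CPM in the dendritic-like cluster 11 and 157 CPM in cluster 15. SDC1, also an epithelial gene, was at least 2-fold lower (10.1 against 175 CPM), and XBP1, PRDM1 and PIM2 were within 2-fold. Of all genes tested, 12.4% were higher and 25.9% lower by this measure. MZB1 had 13 fresh and 14 cryopreserved UMIs, 19 of the 27 in cluster 11, and TNFRSF17 had 1 UMI in the fresh library and 0 in the other.

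**Figure D3:**
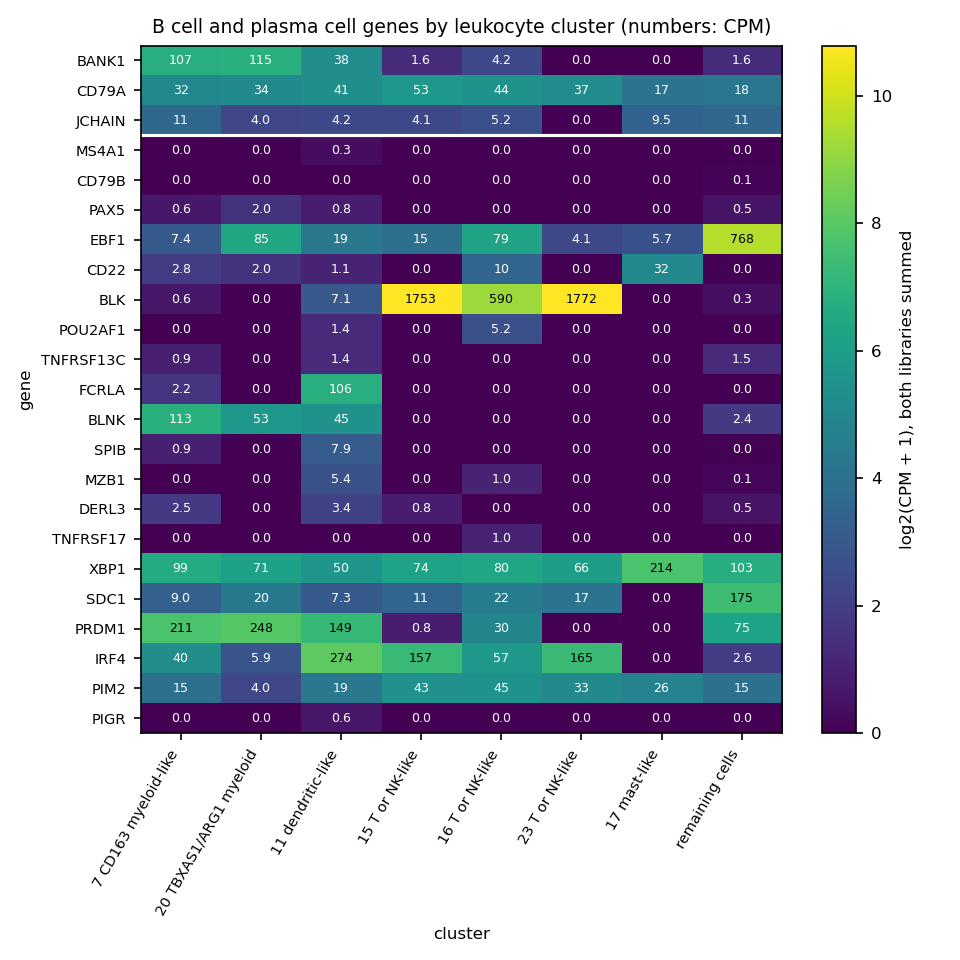
Level of BANK1, CD79A and JCHAIN (above the white line) and of the other B cell and plasma cell genes in each leukocyte cluster and in the remaining cells, both libraries summed; colour is log2(CPM + 1) and the number in each cell is CPM. MS4A1 and CD79B are near 0 in every column, while BLK is high in T or NK-like clusters, FCRLA in cluster 11 and EBF1 in the remaining cells.

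The genes that work with integrins were taken from fixed lists. Activation and adaptor genes link the beta chain to the cytoskeleton and switch it to its active form. Of 7 such genes, 6 were at least 2-fold higher in leukocyte clusters and 0 lower. Of all genes tested, 12.4% were higher and 25.9% lower. The median log2 difference of the list was 2.62 against -0.21 over all genes. FERMT3 stood at 136 CPM in leukocyte clusters and 8.91 CPM in the remaining cells, and reached 376 CPM in cluster 20. FYB1 (87.9 and 1.77 CPM) and APBB1IP (164 and 13.2 CPM) were highest in T or NK-like clusters, with APBB1IP at 403 CPM in cluster 15. RASGRP2 was the member within 2-fold, at 2.54 and 4.67 CPM. Of the ligands, 6 of 7 had at least 200 UMIs. In leukocyte clusters 0 of them were higher and 1, JAM3, was lower. Beside the shares over all genes, counts this small do not set the ligands apart. ICAM1, a ligand of LFA-1 and Mac-1, was at 447 CPM in leukocyte clusters and 254 CPM in the remaining cells, and ICAM3 had 0 UMIs in either library. Of the other leukocyte integrin chains, 4 of 6 were found, ITGAX and ITGAD being not analysed here. ITGB7 (60.4 and 4.27 CPM) and ITGA4 (27.4 and 7.42 CPM) were at least 2-fold higher in leukocyte clusters. ITGA4 (154 CPM), ITGAE (60.8 CPM) and ITGB1 (475 CPM) had in cluster 16 the highest level of the leukocyte clusters.

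The genes most like each member were ranked by Pearson's r of log2(CPM + 1) over the 24 clusters, both libraries summed. These values are descriptions over clusters that share libraries and differ in depth. ITGAM was followed most closely by KYNU (0.90), ENSSSCG00000005311 (CD72, 0.89) and PLD4 (0.89), and ITGAL by RIPOR2 (0.94), TXK (0.89) and PTPRCAP (0.89). ITGB2 was followed by ENSSSCG00000027196 (GIMAP6, 0.97), FCER1G (0.96) and TNF (0.96), and BANK1 by ENSSSCG00000035577 (FAM227A, 0.93), TLR2 (0.93) and C1QB (0.92). For CD79A the leading genes were ENSSSCG00000036716 (0.90), ENSSSCG00000011272 (RPL14, 0.88) and TMEM154 (0.85), and for JCHAIN they were ZFP28, MAP3K10 and SUGCT (0.90 each). Among the members, ITGB2 ran with ITGAM at 0.82 and with ITGAL at 0.81, and the alpha chains with each other at 0.66. BANK1 ran with ITGAM at 0.81 and with CD79A at 0.31, and CD79A ran with JCHAIN at -0.45.

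The cryopreserved and the fresh library were last compared for each gene, with CPM scaled by TMM over all kept cells. ITGB2 was 17.6 CPM in the fresh and 25.5 CPM in the cryopreserved library, a log2 ratio of 0.53 (0.38 to 0.69). CD79A was 19.1 and 22.2 CPM (0.22, 0.06 to 0.37) and ITGAM 13.5 and 15 CPM (0.15, -0.03 to 0.33). ITGAL was 5.20 and 5.41 CPM (0.06, -0.24 to 0.36), BANK1 10.0 and 8.56 CPM (-0.23, -0.46 to 0.00) and JCHAIN 10.9 and 9.64 CPM (-0.18, -0.40 to 0.04). None of the 6 reached 2-fold, as 1.07% of all genes tested did in either direction. At this level a different share of a cell type and a different level per cell cannot be told apart.

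Within clusters the comparison was made where a gene had at least 20 UMIs. ITGB2 was higher in the cryopreserved library in 6 of 6 such clusters, by 0.01 to 0.99 on the log2 scale, and the interval left 0 out in cluster 7 (233 and 386 UMIs, 0.24) and cluster 16 (27 and 61 UMIs, 0.99). The smallest of the 6, 0.01 in cluster 11, took the other sign under 4 alternatives (-0.07 to -0.02). BANK1 was lower in 4 of 4 clusters, among them cluster 7 (166 and 179 UMIs, -0.38, interval -0.69 to -0.06) and cluster 11 (79 and 57 UMIs, -0.71, -1.23 to -0.20). In the fibroblast-like cluster 6 it had 18 and 4 UMIs (-2.84, -4.86 to -1.23). ITGAM was lower in cluster 11 (131 and 112 UMIs, -0.47, -0.84 to -0.09) and near even in cluster 7 (180 and 267 UMIs, 0.08, -0.20 to 0.36). ITGAL was lower in 4 of 4 clusters, in cluster 20 by -0.61 (42 and 63 UMIs, interval -1.19 to -0.01). Without the cells of the highest 6% of Scrublet scores, 11 fresh and 59 cryopreserved ITGAL UMIs were left in cluster 20 and the log2 ratio was 0.91, the opposite direction. CD79A was higher in 11 and lower in 7 of 18 clusters and no interval left 0 out. JCHAIN was higher in 6 and lower in 6 of 12, with 1 interval off 0 in the fibroblast-like cluster 0 (63 and 34 UMIs, -1.13, -1.77 to -0.50). With all fibroblast-like clusters summed, CD79A was higher in the cryopreserved library (152 and 209 UMIs, 0.40, 0.09 to 0.71). In that sum JCHAIN (200 and 163 UMIs, -0.35, -0.66 to -0.05) and BANK1 (31 and 12 UMIs, -1.43, -2.52 to -0.43) were lower. The intervals of ITGAM and ITGAL there held 0.

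**Figure D4:**
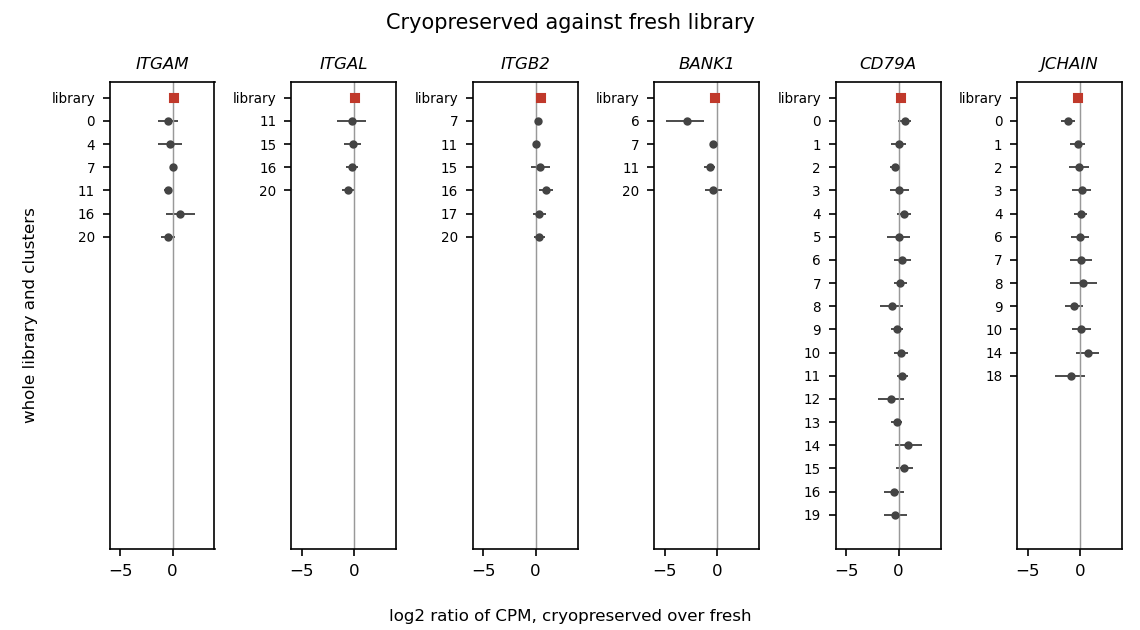
Log2 ratio of CPM, cryopreserved over fresh, of each gene in the whole library (red square) and in each cluster with at least 20 UMIs (grey points, cluster number at the left); bars are exact 95% intervals for counting error and the vertical line is 0. ITGB2 lies at or right of 0 in all 6 clusters, cluster 11 (0.01) taking the other sign under 4 alternatives, and BANK1 left of it in all 4, with the lowest value, -2.84, in cluster 6.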

How the data were processed

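For each library the authors mapped reads with Cell Ranger 4.0.0 (STAR 2.5.1b) to Sscrofa11.1, per the labels, and deposited raw UMI counts per gene and barcode, without normalization. The deposited counts sum to 53271738 (fresh) and 42217632 UMIs (cryopreserved), and kept cells hold 32274985 and 36687009. Cells were filtered by the study's maxima (4500 genes, 30000 UMIs, 10% UMIs of 13 mitochondrial genes), the gene and UMI maxima being set by the study against doublets. No cell was removed here by a doublet call, so doublets below these maxima can remain. The study also gated out doublets by scatter, but before the droplets were made, which cannot remove cells that came to share a droplet. Scrublet (scanpy 1.11.5) called 10 fresh and 8 cryopreserved cells, under 0.5%, and its calls were not taken to have worked. The 6% with the highest score (166 and 253 cells) were left out as an alternative. Libraries were integrated with Seurat 5.3.0 (2000 features without the 6 genes, 30 dimensions, resolution 0.8). A cluster took a name where at least 3 markers were detected in at least 10% of cells and at least 2-fold above the median cluster, with 10 CPM added. UMIs were summed per cluster. Library CPM were scaled by TMM (edgeR 4.0.16), cluster CPM were not. Intervals are exact (Poisson, Clopper-Pearson, conditional binomial). Comparisons between clusters use log2(CPM + 1) over genes with at least 200 UMIs. The ratio, the intervals and the correlation over clusters were tested on simulated counts. For the intervals these counts were drawn from the models that the intervals assume. Integration, clustering, naming, thinning and Scrublet were not tested in this way. The 6 genes, list genes with at least 50 UMIs and, for each member, the 3 genes with the highest correlation over clusters were named, and B cell and plasma cell genes in cells with at least 2 of BANK1, CD79A and JCHAIN. The members and lists were chosen with earlier results of these data known. One listed item is not reported here. MS4A1, SPIB and PDPN were matched by Ensembl identifier. Alternatives varied scaling (total UMIs, DESeq2 1.42.0 size factors), cell filter, doublets, single cells, resolution, integration, features, detection limit and depth.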

Additional observations from a re-analysis of the deposited data

Results flagged for a closer look

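MS4A1 (CD20) was counted in cryopreserved barcodes outside the cell filter, which no comparison used, above its level in the kept cells. It had 4 UMIs in 3 of the 637 excluded cryopreserved barcodes, or 0.723 CPM (exact Poisson interval 0.197 to 1.85), against 0 UMIs in the kept cryopreserved cells (which allows up to 0.0818 CPM). Of these barcodes, 2 had 1231 and 1794 UMIs with 10.6% and 12.7% mitochondrial UMIs, 1 MS4A1 UMI each and 0 UMIs of the 6 genes. The barcode with 1231 UMIs also held 1 UMI of CD22 and 1 of PIM2. The remaining barcode had 4656 genes, 22273 UMIs, 2 MS4A1 UMIs, 4 UMIs of ITGB2 and 469 of COL1A1, with 0 of BANK1, CD79A and JCHAIN. Of the B and plasma cell lists it also held 4 UMIs of XBP1 and 1 each of EBF1, MZB1, SDC1, IRF4 and PIM2. It held 60 UMIs of SLA-DRA and 8 of PTPRC. From the dendritic list it held 5 of FLT3, 4 of CD207 and 0 of CCR7. These genes were picked after their values were seen. In the excluded fresh barcodes MS4A1 had 0 UMIs in 1604 barcodes. CD79B, POU2AF1, MZB1 and TNFRSF17 were read in the same way. Their intervals in excluded barcodes and kept cells overlapped in both libraries. MS4A1 is given because it alone, of these genes and the 6, had an interval above that of the kept cells. Of the 6 genes, CD79A was slightly higher in excluded barcodes than in kept cells, at 21.2 against 19.4 CPM (fresh) and 25.5 against 21.9 CPM (cryopreserved), with intervals that overlapped. The other 5 were lower in both libraries. Among these the intervals also overlapped for JCHAIN in both libraries and for ITGAM and BANK1 in the cryopreserved library.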

How the results depend on the processing

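Over 36 results, 196 alternative values were computed, of which 177 stayed within the 95% interval of the reported value, 18 moved out of it and 1 reversed. The sign changed in 7. The ITGAL log2 ratio in cluster 20, whose interval left 0 out, was -0.61 and became 0.91 without the 6% highest Scrublet scores. The other sign changes were BANK1 with all barcodes, ITGAL without the cell with most UMIs (0.06 to -0.04) and ITGB2 in cluster 11 (0.01) under 4 alternatives, at -0.07 to -0.02. With all barcodes in place of the filter, the cryopreserved over fresh log2 ratio was 0.44 for ITGAM, 0.81 for ITGB2 and 0.068 for BANK1, which was -0.23, and 22.3% of JCHAIN cells held CD79A. BANK1 in cluster 11 was 29.6 CPM with libraries merged without integration, and CD79A in cluster 13 was 29.5 CPM at resolution 0.4 and 36.7 CPM with the members kept among the features. Shares of cells with a second gene moved with what counts as detected. With at least 2 UMIs, 45.7% of ITGAM cells held ITGB2, 5.94% of ITGAM cells held ITGAL, 31.0% of BANK1 cells held ITGAM, 3.56% of CD79A cells held BANK1 and 2.54% of JCHAIN cells held CD79A. With cells thinned to 1000 UMIs the same shares were 9.35%, 1.87%, 11.3%, 0 (0 of 146 cells) and 1.25%, and 12.5% of ITGAL cells held ITGB2. Fewer UMIs per cell leave fewer cells in which 2 genes can be seen together, by construction; the cause of the other moves was not tested. No paired analysis was possible because each condition has 1 library. Intervals cover counting error only, and depth limits genes with few UMIs, such as ITGAL in cluster 7 and MS4A1.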
